A study of Mus musculus with 64 samples.

Results

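Liver RNA of HuMgat2 mice fed a high-fat diet (HFD) was set against liver RNA of HuMgat2 mice fed chow. HuMgat2 mice express human MOGAT2, which takes the place of mouse Mogat2. The libraries were taken by their labels, which give 4 HuMgat2 HFD libraries (9 to 12) and 4 HuMgat2 chow libraries (13 to 16), 8 of the 16 libraries in all, and the comparison was made over all genes. Both groups carry the human gene, and the labels give diet as the difference between them, with livers taken after 16 weeks. The other libraries come from wild-type (WT) mice on HFD (1 to 4) and on chow (5 to 8), which keep mouse Mogat2. They shared the estimate of spread and gave the WT diet effect for the interaction test. The labels used here state neither sex, age, strain, the promoter of the human gene, collection time nor feeding state. By the labels alone, a difference in any of these between the diets cannot be told apart from the diet. The sex of the libraries was not read from the counts here. The labels speak of mice but tie no library to a named animal, so p-values measure the spread between these libraries, part of which may be technical.

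MOGAT2 joins a fatty acid to monoacylglycerol, the step by which the intestine rebuilds fat after a meal, and diacylglycerol acyltransferases then complete the triglyceride. In liver, fat from food, from adipose tissue or from new synthesis is stored in droplets coated by perilipins and CIDE proteins, and fatty acids activate the receptor PPAR alpha, which raises their oxidation and the making of ketone bodies. In male rodents, pulses of growth hormone acting through STAT5 keep a set of male-biased liver genes active.

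Total counts were 19.7 to 22.9 M in the HFD libraries and 19.4 to 25.6 M in the chow libraries. Mogat2, which HuMgat2 mice lack, had 3 counts over each of the HuMgat2 HFD and HuMgat2 chow groups and was too low to test, and it was low in WT liver too, with 21 counts on HFD and 4 on chow. The level of human MOGAT2 was not analysed here. Albumin, a defining transcript of liver, took 4.16% to 5.06% of counts on HFD and 3.26% to 5.93% on chow. Chow libraries differed more among themselves. Chow library 13 had 13.7% of its counts from the mitochondrial genome, against 5.61% to 8.12% in the other 7 HuMgat2 libraries. Chow library 14 had 2.83% of its counts in the major urinary protein (Mup) family, against 10.05% to 14.5% in the other 3 chow libraries and 1.78% to 3.66% on HFD. The TMM scaling factors were 1.05 to 1.13 on HFD and 0.794 to 1.03 on chow and did not overlap (exact permutation test, two-sided, p = 0.0286, the smallest that 4 against 4 can give; adjusted p = 0.228 over 8 library measures). WT HFD library 4 was unlike the other WT HFD libraries, with 12.4 M counts and 0.850% of them albumin. It lies in neither HuMgat2 group but enters the shared estimate of spread and every WT value.

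On HFD, genes of fat storage, fatty acid uptake and synthesis, fatty acid oxidation, extracellular matrix and cell division were higher in HuMgat2 liver, and male-biased genes, cytochrome P450 genes and periportal enzymes were lower. The edgeR quasi-likelihood test called 2418 of 17318 tested genes at adjusted p below 0.05 (14.0%), with 1309 higher (7.56%) and 1109 lower (6.40%). The groups did not overlap in 2141 of the called genes, and 3639 of all tested genes had no overlap (21.0%). Most called changes were moderate. The median log2 change was 0.87 among the higher and -0.67 among the lower genes, and 62.7% of called genes changed less than 2-fold. Changes of 4-fold or more were called for 143 higher and 99 lower genes, and of 32-fold or more for 7 in each direction. The share called grew with abundance (mean CPM over the libraries), at 6.92% of genes below 1 CPM and 29.0% of genes at 1000 CPM or more. Levels are in CPM, counts scaled to a common library size after TMM, and values per library are listed in the order 9, 10, 11 and 12 for HFD and 13, 14, 15 and 16 for chow. With library totals in place of TMM, the median log2 change of all tested genes moved to 0.23, against -0.01, and 3326 genes were called higher and 407 lower. The directions below are relative to the TMM scaling, under which the median gene hardly moved. In WT, 2617 of the 17318 tested genes were called, with no split by direction given here. The shares of 7.56% and 6.40% belong to HuMgat2 and are not a background for WT counts of list members.

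**Figure D1:**
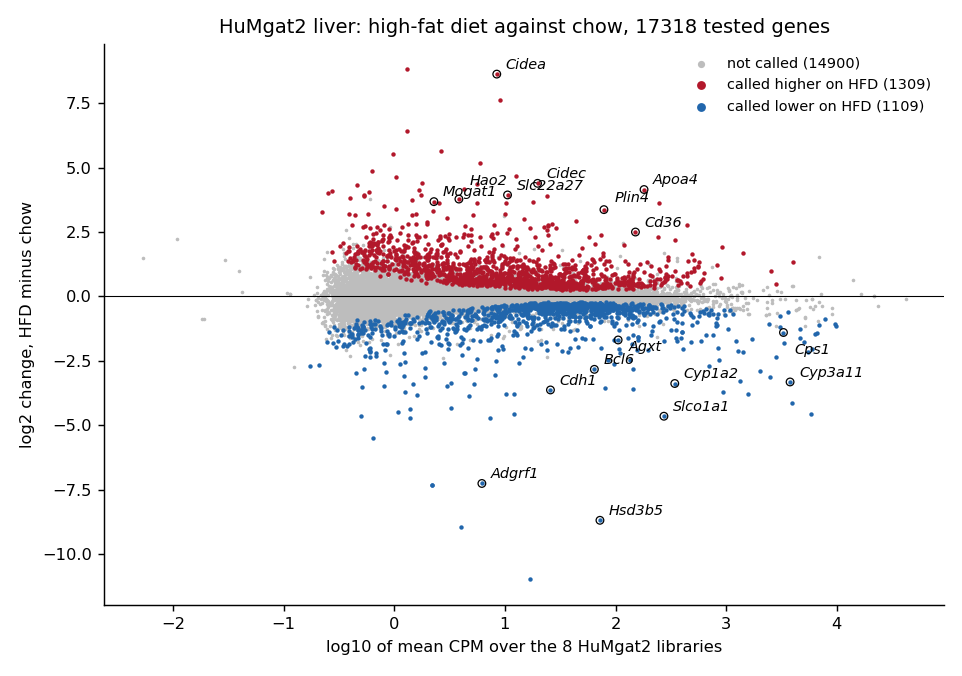
Log2 change on HFD relative to chow in HuMgat2 liver (vertical) against the log10 of the mean CPM over the 8 libraries (horizontal), 1 point per tested gene; red points were called higher, blue lower, grey not called, and circles mark genes named in the text. The 1309 higher and 1109 lower genes lie at all levels of abundance, and Cidea and Hsd3b5 lie near the extremes.

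Genes that coat and fill lipid droplets rose. Of 21 tested droplet genes 11 were called higher and 0 lower, with a median log2 change of 0.44, against -0.01 over all tested genes. Plin4, a perilipin that coats droplets (ENSMUSG00000002831, GRCm39 chromosome 17, 56407591 to 56416803), stood at 103, 105, 159.7 and 206 CPM on HFD, against 6.39, 23.1, 12.5 and 12.9 CPM on chow (log2 change 3.37 ± 0.38 SE, adjusted p = 2.61e-05). Cidec, which fuses droplets into larger ones, stood at 20.3, 46.4, 29.7 and 54.5 CPM on HFD, against 1.10, 1.94, 2.31 and 1.73 CPM on chow (log2 change 4.39 ± 0.61 SE, adjusted p = 0.000164). Every HFD library lay above every chow library for both genes, and HFD libraries 11 and 12 were the highest for Plin4. Cidea, a relative of Cidec first known from brown fat, had 1540 counts over the HFD group and 3 over the chow group, 2 of them in library 15. The ratio was 530 by library totals without TMM (95% counting interval 181 to 2570), and the fitted change with TMM was 395-fold. Its HFD values were uneven, at 4.48, 22.8, 15.2 and 25.0 CPM. The lipase-related Pnpla3 rose 4.45-fold with chow library 14 above the other chow libraries, and its log2 change of 2.15 was 2.99 without that library. Fitm1, an endoplasmic reticulum protein that helps droplets form, rose 2.72-fold. The general droplet coats Plin2 and Plin3 rose 1.97-fold and 1.70-fold. Plin4 and Plin3 were the 2 droplet genes whose diet effect was larger in HuMgat2 than in WT by the interaction test, which called 4.87% of all tested genes. The diet change of Plin4 in WT was 0.16 on the log2 scale (interaction log2 3.21 ± 0.50 SE, adjusted p = 0.00143).

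Fatty acid uptake genes followed. Of 18 tested, 7 were called higher and 0 lower (median log2 change 0.37). Cd36, which carries long-chain fatty acids into the cell (ENSMUSG00000002944, GRCm39 chromosome 5, 17986688 to 18093745), stood at 218, 261, 277 and 273 CPM on HFD, against 51.3, 43.9, 43.3 and 44.0 CPM on chow (log2 change 2.50 ± 0.22 SE, adjusted p = 3.07e-06). The chow libraries lay close together and all HFD libraries were at least 4 times as high. Fabp2, the fatty acid binding protein of the intestine, stood at 44.9, 50.4, 46.0 and 40.1 CPM on HFD, against 18.1, 14.8, 13.8 and 15.0 CPM on chow (log2 change 1.56 ± 0.34 SE, adjusted p = 0.00592), again without overlap. The lipoprotein receptor Vldlr rose 2.56-fold, the adipocyte binding protein Fabp4 2.42-fold and lipoprotein lipase Lpl 1.61-fold. The call for Vldlr was lost without any single HuMgat2 library but chow library 14. The diet effects of Cd36 and Vldlr were larger in HuMgat2 than in WT, where Cd36 changed by 0.54 and Vldlr by -1.26 on the log2 scale (interaction log2 2.61 ± 0.61 SE, adjusted p = 0.0197 for Vldlr). In WT 3 members were called higher and 0 lower. They were Fabp2, Fabp4 and Lpl, at log2 changes of 1.8, 1.09 and 1.55 in WT, and their interactions were not called. The count of 7 fell to 4 without HFD library 10, 11 or 12 or chow library 16, and to 3 without chow library 15, and 1 member was lower without WT HFD library 4.

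In glycerolipid synthesis the first steps rose and the last did not pass the test. Of 19 tested genes 8 were called higher and 0 lower (median log2 change 0.54), and 5 were higher without HFD library 12 or chow library 13. Gpat3 and Gpam, which put the first fatty acid on glycerol phosphate, rose 4.80-fold and 2.51-fold. Lpin1, which makes diacylglycerol, rose 1.77-fold, and Gpd1, which supplies glycerol phosphate, rose 1.76-fold, a call lost without any single HuMgat2 library. The call for Lpin1 was lost without HFD library 9 or 12 or chow library 13, 14 or 15. Mogat1, the relative of MOGAT2 found in mouse liver (ENSMUSG00000012187, GRCm39 chromosome 1, 78487806 to 78514810), stood at 3.01, 4.07, 5.23 and 4.62 CPM on HFD, against 0.194, 0.0759, 0.752 and 0.328 CPM on chow (log2 change 3.68 ± 0.57 SE, adjusted p = 0.000437). No HFD library was below 3 CPM and no chow library reached 1 CPM. Its log2 change was 4.42 without chow library 15, the highest of the chow libraries. Dgat1 and Dgat2, which make triglyceride, stood at 9.41 ± 1.34 and 180 ± 13.8 CPM on HFD and at 9.19 ± 1.64 and 201 ± 31.3 CPM on chow (SD, n = 4 each) and did not pass the test (adjusted p = 0.935 for Dgat1 and 0.446 for Dgat2).

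Enzymes of new fatty acid synthesis rose, with the fatty acid elongase Elovl3 as the exception. Of 20 tested genes 11 were called higher and 1 lower (median log2 change 0.86). Elovl6, which lengthens palmitate, stood at 203, 465, 343 and 597 CPM on HFD, against 97.8, 74.8, 84.2 and 72.6 CPM on chow (log2 change 2.29 ± 0.34 SE, adjusted p = 0.000325). Pklr, the liver pyruvate kinase that feeds carbon into the pathway, stood at 412, 560.5, 591 and 695 CPM on HFD, against 149.6, 92.2, 150.5 and 107 CPM on chow (log2 change 2.18 ± 0.30 SE, adjusted p = 0.000149). Both genes had no overlap between the diets. Elovl5 rose 3.82-fold, fatty acid synthase Fasn 3.23-fold and the 2 acetyl-CoA carboxylases Acaca and Acacb 2.88-fold and 1.91-fold. Elovl3 fell 4.14-fold. It is also on the list of male-biased genes, and it fell in WT too (log2 change in WT -2.09, adjusted p = 0.00747). Without chow library 14, 2 members were lower. Scd1, the stearoyl-CoA desaturase and an abundant transcript in both groups, stood at 14190, 14510, 14590 and 25150 CPM on HFD, against 10010, 22490, 7748 and 3579 CPM on chow and did not pass the test (log2 change 0.64 ± 0.44 SE, adjusted p = 0.372). Chow library 14 was above 3 of the HFD libraries, and without it Scd1 was called higher (log2 change 1.27, adjusted p = 0.0413).

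Genes of fatty acid oxidation rose as well, most clearly those of peroxisomes and other PPAR alpha targets. Of 27 tested genes of that list 15 were called higher and 0 lower (median log2 change 1.15). The share called higher was 7.56% in the full set of 17318 genes. Every HFD library was separate from every chow library in 21 of the 27 members. Such separation was seen in 21.0% of the full set. Acot3, a peroxisomal thioesterase, stood at 53.6, 40.9, 30.7 and 46.7 CPM on HFD, against 6.97, 8.35, 4.83 and 4.63 CPM on chow (log2 change 2.79 ± 0.44 SE, adjusted p = 0.000484). Vnn1, a pantetheinase, stood at 116, 125, 129 and 123 CPM on HFD, against 24.5, 19.5, 19.7 and 30.0 CPM on chow (log2 change 2.39 ± 0.43 SE, adjusted p = 0.00133). Its HFD libraries lay close together, and all were above every chow library. Fgf21, the fasting hormone secreted by liver, stood at 9.52, 9.87, 6.08 and 4.75 CPM on HFD, against 0.516, 1.90, 0.483 and 1.45 CPM on chow (log2 change 2.73 ± 0.44 SE, adjusted p = 0.00057), with libraries 9 and 10 above 11 and 12 on HFD. The fatty aldehyde dehydrogenase Aldh3a2 rose 2.68-fold. Cyp4a14, a fatty acid omega-hydroxylase, stood at 1105, 726, 801 and 482 CPM on HFD, against 94.7, 302, 38.0 and 25.2 CPM on chow (log2 change 2.76 ± 0.87 SE, adjusted p = 0.0445). Its chow values spanned more than 10-fold, the log2 change was 3.89 without chow library 14, and the call was lost without any other single HuMgat2 library and without WT chow library 5, 7 or 8. Ppara itself did not pass the test (log2 change 0.51, adjusted p = 0.0515) but was called higher in 7 of 24 alternatives, among them DESeq2 (adjusted p = 0.038) and the fit without WT HFD library 4 (adjusted p = 0.00736).

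In this list the diet effect differed between genotypes for 9 of 27 members, against 4.87% of all tested genes, and all 9 differences were towards higher values in HuMgat2. In WT, 3 members were called higher and 3 lower. Cyp4a14 was lower on HFD in WT (log2 change in WT -2.87, adjusted p = 0.037; interaction log2 5.63 ± 1.24 SE, adjusted p = 0.0149), and Acot3 and Fgf21 changed there by -0.06 and -0.37 on the log2 scale.

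The mitochondrial steps rose by less. Of 22 tested genes 9 were called higher and 0 lower (median log2 change 0.42). Bdh1, which makes the ketone body 3-hydroxybutyrate, stood at 229, 238, 233 and 242 CPM on HFD, against 118, 126, 110.1 and 138 CPM on chow (log2 change 0.94 ± 0.23 SE, adjusted p = 0.0112). The HFD libraries lay close together and above every chow library. The oxidation enzymes Hadh and Eci1 rose 1.83-fold and 1.81-fold. Cpt1a, which admits fatty acids to mitochondria, rose 1.71-fold. The count was 15 without WT HFD library 4 and 14 with the 8 HuMgat2 libraries alone. In WT, 1 member was called higher. Of 35 nuclear subunits of the respiratory chain 1 fell, against 6.40% of all tested genes. It was Ndufs7 (log2 change -0.28), a call lost in 9 of 24 alternatives. These changed the scaling, the filter, the tool or left out a library. Of the subunits 1 rose without chow 13 or WT chow 8 and 2 without WT HFD library 4. With library totals 6 rose and 0 fell. Of 13 mitochondrial genome transcripts 0 were called by edgeR, DESeq2 or limma voom and 0 had an unadjusted p below 0.05, with chow library 13 far above the rest. Of 37 cytosolic ribosomal protein genes 0 were called by edgeR, 3 were lower by DESeq2 and 2 by limma voom, and 9 had an unadjusted p below 0.05. Without HFD library 9, 2 of them were called lower, and 1 without chow library 13, chow library 14 or WT HFD 4.

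**Figure D2:**
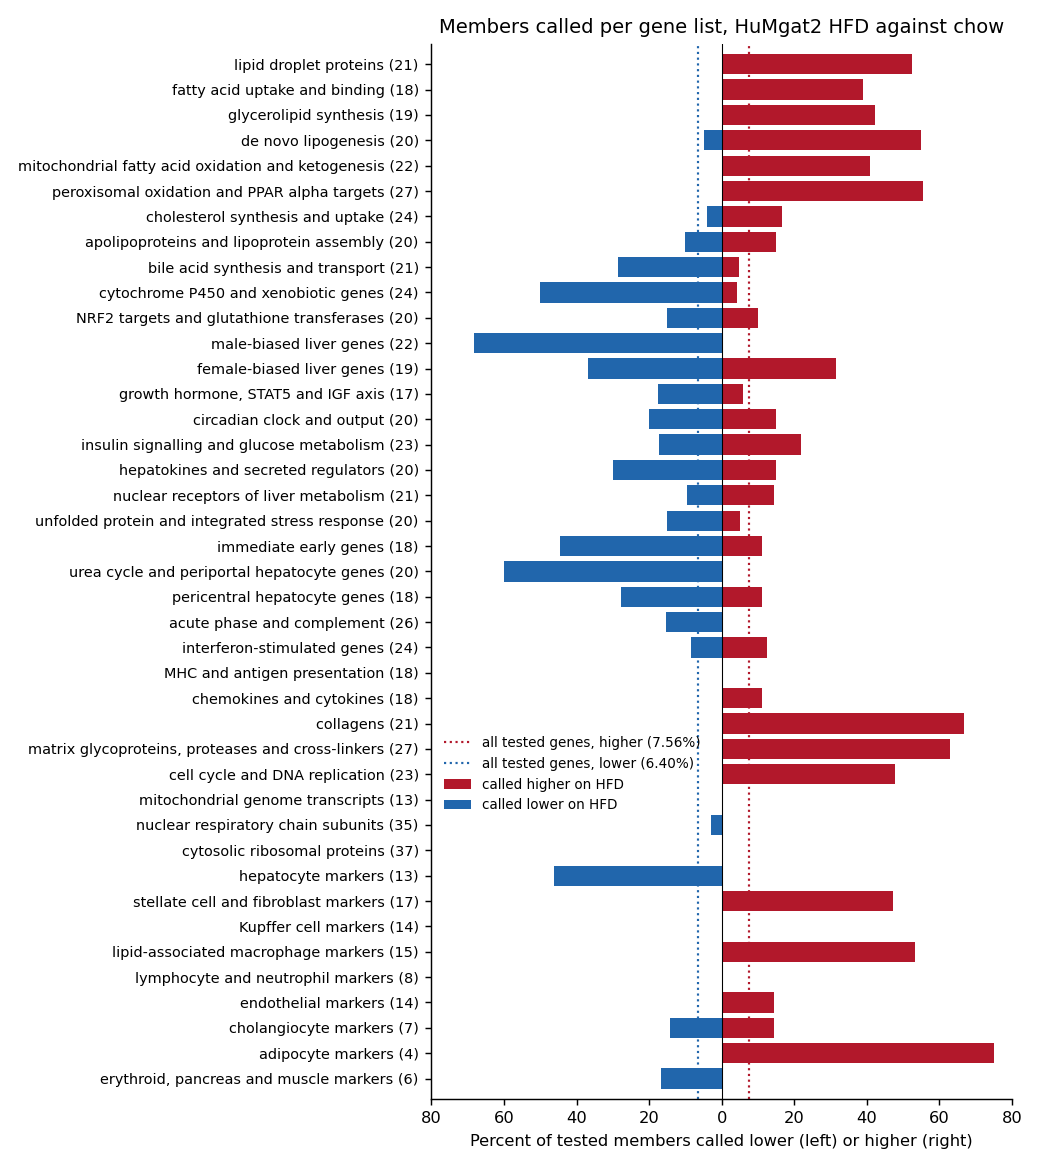
Percent of tested members called higher on HFD (red, right) or lower (blue, left) in each gene list, with the number of tested members in brackets; dotted lines mark the share of all 17318 tested genes. Lipid, oxidation and matrix lists reach to the right, with 11 of 21 droplet genes and 14 of 21 collagens higher, and male-biased and periportal lists to the left, with 15 of 22 and 12 of 20 lower.

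Promoter sequence was looked up for the lipid genes because several moved together and PPAR alpha with its partner RXR binds a direct repeat of AGGTCA spaced by 1 base. Promoters were read from RefSeq (assembly GRCm38.p6, an older build than the GRCm39 of the counts), from 250 bases before to 50 bases after the start of each gene, for 51 of 68 members of the lipid lists called higher, some of which have several starts. Both strands were searched for that repeat with at most 2 mismatches. It was found in 5 of 63 promoters (7.94%), against 3.86% of all 32851 promoters, in Acot4, Cd36, Mogat1, Plin2 and Slc25a20. A match is a description of these letters and not of binding. The 250 bases before the start are shown for 3 of the lipid genes and for Slco1a1, described below, with the match in capitals, each 5′ to 3′ on the strand of its gene:
Mogat1 (chr1:78510810-78511059, plus strand): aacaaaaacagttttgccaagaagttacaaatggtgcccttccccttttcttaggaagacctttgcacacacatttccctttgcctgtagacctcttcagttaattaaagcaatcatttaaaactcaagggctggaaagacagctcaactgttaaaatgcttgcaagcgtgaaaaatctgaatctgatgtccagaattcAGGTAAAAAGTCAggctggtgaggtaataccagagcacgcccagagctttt
Cd36 (chr5:17835897-17836146, minus strand): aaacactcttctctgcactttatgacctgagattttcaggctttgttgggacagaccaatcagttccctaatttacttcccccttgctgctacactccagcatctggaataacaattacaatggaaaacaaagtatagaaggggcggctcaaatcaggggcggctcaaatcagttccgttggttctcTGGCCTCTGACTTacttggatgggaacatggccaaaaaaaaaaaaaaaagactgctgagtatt
Plin2 (chr4:86670060-86670309, minus strand): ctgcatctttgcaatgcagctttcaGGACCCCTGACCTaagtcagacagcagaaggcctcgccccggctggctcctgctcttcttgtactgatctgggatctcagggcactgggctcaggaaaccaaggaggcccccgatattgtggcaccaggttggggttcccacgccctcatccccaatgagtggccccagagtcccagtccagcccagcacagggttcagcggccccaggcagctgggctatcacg
Slco1a1 (chr6:141946963-141947212, minus strand): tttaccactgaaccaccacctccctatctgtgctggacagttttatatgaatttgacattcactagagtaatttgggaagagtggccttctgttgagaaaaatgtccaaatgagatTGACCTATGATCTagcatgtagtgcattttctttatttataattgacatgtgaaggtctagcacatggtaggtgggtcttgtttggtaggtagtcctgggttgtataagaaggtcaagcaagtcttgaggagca
The match in Mogat1 lies 51 bases before the start and reads on the strand of the gene, and those in Cd36 and Plin2 lie 63 and 225 bases before it on the opposite strand. In Slco1a1 it lies 134 bases before the start with 1 mismatch. The E-box CACGTG, which carbohydrate and clock regulators bind, was found in 14.3% of the lipid promoters, against 7.15% of all promoters. A STAT5 motif, TTCNNNGAA, was in 0 of the 63 lipid promoters and 0 of 10 promoters of male-biased genes called lower, against 8.30% of all promoters.

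Cholesterol synthesis divided the libraries rather than the diets. Of 24 tested genes 4 were called higher and 1 lower (median log2 change 0.32), against 7.56% and 6.40% of all tested genes. The level of the list in a library, taken as the median over members of log2(CPM + 0.1) centred on each gene's mean over the 8 libraries, was 0.71, 0.59, -0.35 and -0.29 on HFD and -0.36, -0.32, 0.03 and 0.09 on chow. HFD libraries 9 and 10 were the highest of the 8, and HFD libraries 11 and 12 lay within the chow range. Hmgcs1, which makes the building block of the pathway, stood at 839, 893, 404 and 381 CPM on HFD, against 265, 230.2, 426 and 374 CPM on chow (log2 change 0.96 ± 0.30 SE, adjusted p = 0.0389), and Fdps, a later enzyme, at 37.7, 37.8, 18.8 and 15.2 CPM on HFD, against 8.20, 9.68, 15.8 and 17.1 CPM on chow (log2 change 1.11 ± 0.34 SE, adjusted p = 0.036). Both overlapped between the diets, and both calls were lost without HFD library 9 or 10 or chow library 13 or 14. The list count of 4 fell to 1 without HFD library 9 or 10 or chow library 13, and to 2 without chow 14, WT chow 5 or WT chow 6. Ebp, a sterol isomerase, fell 1.30-fold (adjusted p = 0.0495), a call lost in 18 of 24 alternatives. In WT 0 members were called higher and 17 lower, and the diet effect differed between genotypes for 14 of 24.

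**Figure D3:**
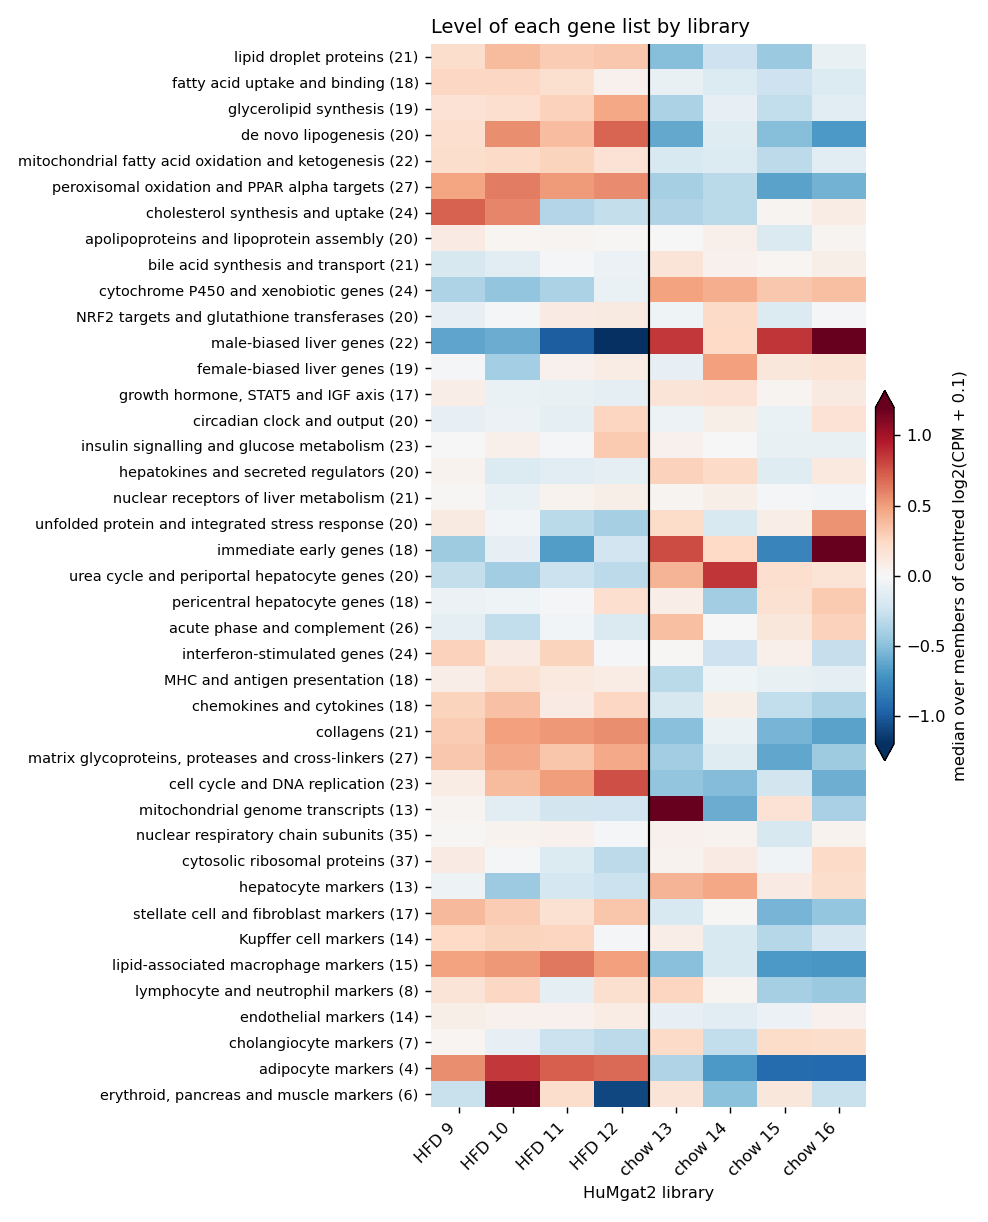
Level of each gene list (rows, tested members in brackets) in each HuMgat2 library (columns, HFD 9 to 12 left of the line, chow 13 to 16 right), as the median over members of log2(CPM + 0.1) centred on each gene's mean over the 8 libraries; red is higher. Most lipid, matrix and P450 rows change colour at the line, whereas cholesterol genes are high in HFD 9 and 10 alone, immediate early genes are low in chow 15 at -0.79, and mitochondrial transcripts are high in chow 13 at 1.39.

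Among lipoprotein genes Apoa4, an apolipoprotein of triglyceride-rich particles, stood at 242, 507, 236 and 385 CPM on HFD, against 25.8, 14.6, 20.8 and 16.5 CPM on chow (log2 change 4.15 ± 0.56 SE, adjusted p = 0.00012), without overlap. Pltp, which transfers phospholipid between lipoproteins, rose 2.33-fold, and Apoa5, which aids triglyceride clearance, rose 1.32-fold (adjusted p = 0.047, a call lost in 16 of 24 alternatives). Apom and hepatic lipase Lipc fell 1.91-fold and 1.55-fold. In all, 3 of 20 were called higher and 2 lower, against 7.56% and 6.40% of all tested genes.

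Bile acid genes fell more often than they rose, with 6 of 21 called lower and 1 higher (median log2 change -0.13). Of all tested genes 6.40% were called lower and 7.56% higher. Cyp7b1, an oxysterol hydroxylase that is also male-biased, fell 4.27-fold, the mouse bile acid hydroxylase Cyp2c70 3.22-fold, the feedback repressor Nr0b2 2.22-fold, the bile salt export pump Abcb11 2.00-fold and the side-chain enzyme Cyp27a1 1.92-fold. Cyp2c70 stood at 100.1, 60.4, 73.6 and 68.8 CPM on HFD, against 263, 185, 232 and 296 CPM on chow (log2 change -1.69 ± 0.22 SE, adjusted p = 9.95e-05), without overlap. In WT it was higher on HFD, at 443, 334, 247 and 539.6 CPM in libraries 1 to 4, against 155, 212, 158 and 159.7 CPM on chow in libraries 5 to 8 (interaction log2 -2.88 ± 0.31 SE, adjusted p = 8.35e-05). Cyp7a1, the rate-limiting enzyme, stood at 181, 148, 140.1 and 91.2 CPM on HFD, against 62.4, 35.8, 130.3 and 32.9 CPM on chow and did not pass the test (log2 change 1.10 ± 0.40 SE, adjusted p = 0.0753). It was called higher in 4 alternatives, with a log2 change of 1.68 without chow library 15 (adjusted p = 0.00645), and also with library totals, with no filter and by limma voom. The higher count was 2 without chow library 14 or 15, WT HFD 3 or WT HFD 4. With library totals the median of the list was above 0, and 5 members were called in each direction.

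Drug-metabolising P450 genes were lower. Of 24 tested genes 12 fell and 1 rose (median log2 change -0.66). In WT 12 members of this list were also called lower and 2 higher, with a median log2 change of -0.66. The diet effect was called different between genotypes for 7. Cyp3a11, the main drug-metabolising P450 of mouse liver, stood at 583, 683, 565 and 917 CPM on HFD, against 7200, 7538, 5931 and 6831 CPM on chow (log2 change -3.32 ± 0.73 SE, adjusted p = 0.00605). Cyp1a2, which metabolises caffeine and aromatic amines, stood at 63.4, 51.7, 52.9 and 72.5 CPM on HFD, against 778, 330, 641 and 756 CPM on chow (log2 change -3.38 ± 0.29 SE, adjusted p = 3.05e-06). Neither overlapped, although chow library 14 was the lowest chow library for Cyp1a2. Cyp2b10, the classic target of the receptor CAR, fell 26.2-fold (log2 change -4.71, -5.40 without HFD library 12), Cyp2c55 13.7-fold and Cyp2c54 12.2-fold. Cyp2c38 was the member that rose (1 more did without chow library 15), at 185, 149, 196 and 233 CPM on HFD, against 56.9, 38.8, 56.0 and 40.9 CPM on chow (log2 change 1.99 ± 0.19 SE, adjusted p = 4.93e-06). In WT Cyp2c38 changed by -0.64 on the log2 scale (interaction log2 2.63 ± 0.26 SE, adjusted p = 6.2e-05). Members of the Cyp2c and Cyp3a families are close in sequence. No option in the file header asks to count reads that match several of them, and whether they were left out is uncertain. The values of these genes are therefore uncertain. Among 20 NRF2 targets and glutathione transferases 2 were called higher and 3 lower, against 7.56% and 6.40% of all tested genes. The lower ones were the transferases Gstp1, Gsta2 and Gsta4 (4.05-fold, 3.43-fold and 2.40-fold), and the higher ones were the regulator Nfe2l2 (1.34-fold) and sulfiredoxin Srxn1 (2.13-fold). Nfe2l2 was not called without HFD library 10 or chow library 14 or 15, and the count of higher genes was 1 without HFD library 10 or chow library 15. With library totals 4 were higher and 3 lower. In WT the list had 0 members higher and 12 lower.

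Male-biased liver genes were the list with the largest share of members lower among the 41 lists, 15 of 22 with 0 higher (median log2 change -2.03). Hsd3b5, a 3-ketosteroid reductase of male liver (ENSMUSG00000038092, GRCm39 chromosome 3, 98525950 to 98537568), stood at 0.407, 0.531, 0.213 and 0.224 CPM on HFD, against 175, 50.2, 157 and 195 CPM on chow (log2 change -8.69 ± 0.86 SE, adjusted p = 9.4e-06). Slco1a1, an organic anion transporter, stood at 46.7, 24.9, 6.08 and 6.18 CPM on HFD, against 632, 299, 593 and 584 CPM on chow (log2 change -4.65 ± 0.72 SE, adjusted p = 0.000419). Neither gene overlapped. On HFD, libraries 9 and 10 kept more Slco1a1 than 11 and 12, and its log2 change was -5.41 without library 9. Mup7, a major urinary protein, stood at 654, 743, 308 and 168 CPM on HFD, against 12960, 227, 11680 and 19630 CPM on chow (log2 change -4.57 ± 1.01 SE, adjusted p = 0.00637). Chow library 14 lay within the HFD range for Mup7 and was also the lowest chow library for Hsd3b5 and Slco1a1. Mup12 and the fatty acid hydroxylase Cyp4a12b fell 13.9-fold and 6.25-fold. Mup genes are near-identical copies, so the counts of any 1 of them are uncertain. In WT 6 members were lower, and the diet effect was called different between genotypes for 6, Hsd3b5 among them (log2 change in WT -0.51, adjusted p = 0.584; interaction log2 -8.18 ± 1.01 SE, adjusted p = 0.000217). In WT HFD library 4 Hsd3b5 and Slco1a1 stood at 6.59 and 43.9 CPM, against at least 101 and 473 CPM in WT HFD libraries 1 to 3.

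Female-biased genes moved both ways, with 6 of 19 called higher and 7 lower. The lower count was 4 without HFD library 10 or 11 or chow library 16, and with library totals 6 were higher and 4 lower. Slc22a27, an organic anion transporter of female mouse liver (ENSMUSG00000067656, GRCm39 chromosome 19, 7841753 to 7943392), stood at 22.0, 19.7, 18.1 and 19.6 CPM on HFD, against 1.29, 1.18, 1.34 and 1.36 CPM on chow (log2 change 3.94 ± 0.22 SE, adjusted p = 3.34e-08), the smallest p of all tested genes. The 4 libraries of each diet lay close together, with more than 10-fold between the diets. In WT it stood at 1.03, 0.501, 1.30 and 0.953 CPM on HFD and at 2.46, 1.25, 1.90 and 1.73 CPM on chow, and its interaction p was the smallest of all too (interaction log2 4.90 ± 0.32 SE, adjusted p = 4.79e-07). Cyp2b9, a P450 of female liver, stood at 375, 419, 567 and 484 CPM on HFD, against 74.6, 6.19, 59.8 and 10.8 CPM on chow (log2 change 3.62 ± 0.84 SE, adjusted p = 0.00859). The chow libraries fell into a higher pair (13 and 15) and a lower pair (14 and 16), all below the HFD libraries. In WT its change was the opposite (log2 change in WT -6.54, adjusted p = 0.00776; interaction log2 10.16 ± 1.66 SE, adjusted p = 0.00191). Cyp2b13 and the hydroxyacid oxidase Hao2 rose 14.8-fold and 13.7-fold, and the log2 change of Cyp2b13 was 3.89 with all libraries and 4.55 without chow library 13. Of the 7 that fell 4 were of the Cyp3a family, including Cyp3a16 (14.4-fold) and Cyp3a44 (13.2-fold).

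In the growth hormone axis Bcl6, a repressor that is higher in male liver, stood at 17.4, 14.1, 13.0 and 18.9 CPM on HFD, against 152, 49.7, 134 and 117 CPM on chow (log2 change -2.83 ± 0.49 SE, adjusted p = 0.00108), without overlap and with chow library 14 the lowest of the chow group. Igfbp2, an IGF binding protein, stood at 39.3, 26.2, 25.0 and 27.9 CPM on HFD, against 119, 122, 105 and 125 CPM on chow (log2 change -1.99 ± 0.26 SE, adjusted p = 8.97e-05). Igf1 itself fell 1.44-fold and Stat5a rose 1.34-fold. The diet effects of Bcl6, Igfbp2, Igf1 and Stat5a differed between genotypes, with the call for Stat5a lost in 15 and that for Igf1 in 3 of 23 alternatives, and Bcl6 changed by 0.04 in WT on the log2 scale (interaction log2 -2.87 ± 0.66 SE, adjusted p = 0.0193). Of 17 tested genes of the axis 1 was called higher, Stat5a, and 3 lower, against 7.56% and 6.40% of all tested genes. Stat5a was not called without HFD library 11 or chow library 14, and Igf1 was not called in 7 alternatives. The lower count was 6 without WT HFD library 4. The higher count was 0 without HFD library 11, 2 without chow library 14, WT HFD 1 or WT HFD 4, and 3 without WT chow library 5. With library totals 4 were higher and 2 lower.

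**Figure D4:**
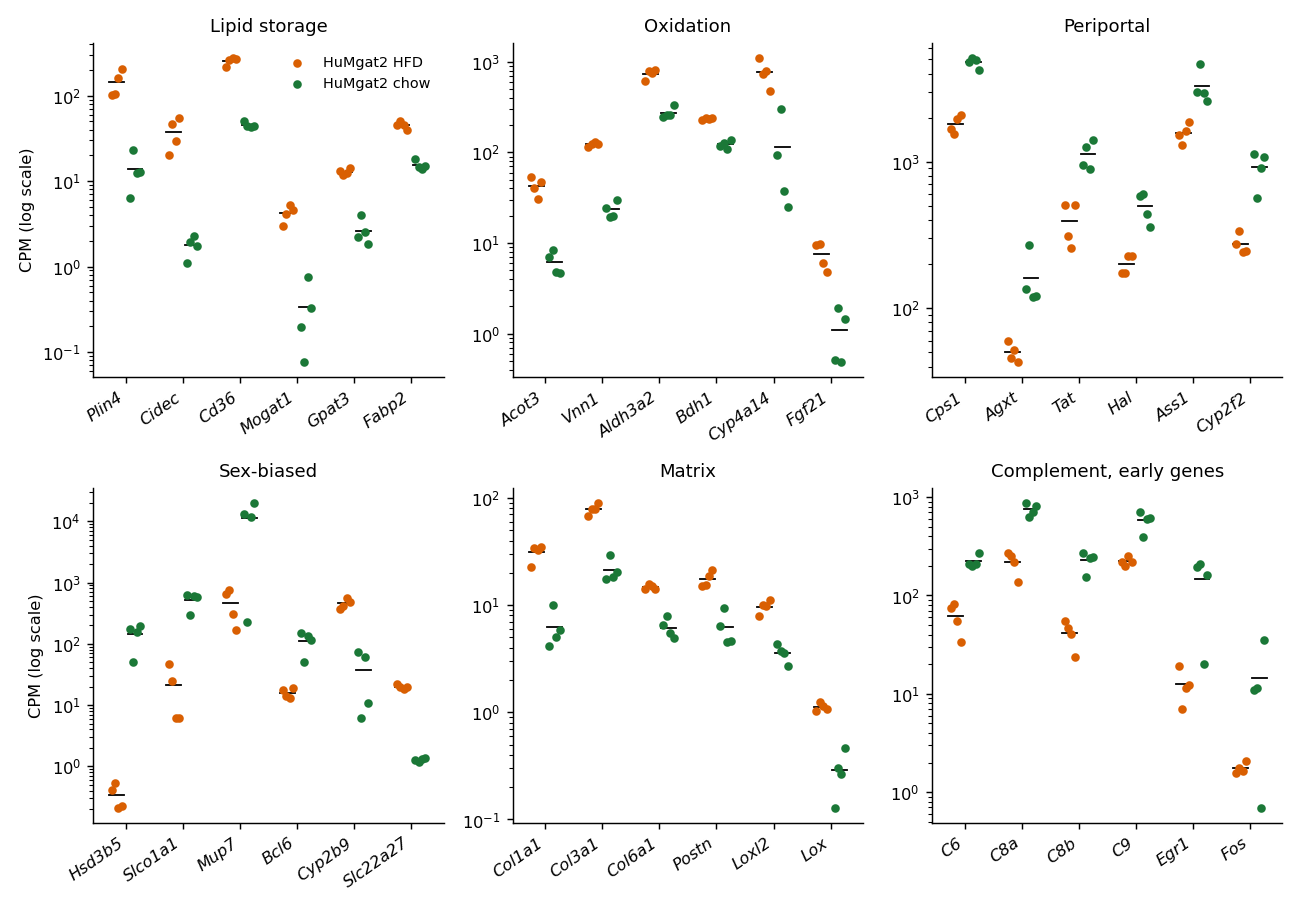
CPM (log scale) of 36 genes in the 4 HuMgat2 HFD libraries (orange, left) and the 4 HuMgat2 chow libraries (green, right), in library order from left to right, with black bars at group means. The diets separate for most genes, whereas chow library 14 falls within the HFD range for Mup7 and chow library 15 lies low for Egr1 and Fos.

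Periportal hepatocyte genes, which run the urea cycle and amino acid breakdown near the portal vein, fell together. Of 20 tested genes 12 were called lower and 0 higher (median log2 change -0.65), and the lower count stayed between 10 and 14 under all 24 alternatives, while 1 member was higher without chow library 14. Cps1, which brings ammonia into the urea cycle (ENSMUSG00000025991, GRCm39 chromosome 1, 67162185 to 67270418), stood at 1681, 1536, 1956 and 2070 CPM on HFD, against 4793, 5114, 4982 and 4231 CPM on chow (log2 change -1.40 ± 0.17 SE, adjusted p = 6.16e-05). Agxt, which detoxifies glyoxylate, stood at 59.9, 45.9, 51.7 and 42.8 CPM on HFD, against 135, 270.5, 119 and 120.5 CPM on chow (log2 change -1.69 ± 0.22 SE, adjusted p = 0.000106). Neither overlapped, and chow library 14 was the highest for Agxt. Cyp2f2, a marker of periportal cells, fell 3.34-fold, the tyrosine and histidine enzymes Tat and Hal fell 2.85-fold and 2.47-fold, and argininosuccinate synthase Ass1 fell 2.09-fold. Otc, the second enzyme of the cycle, did not pass the test (log2 change -0.46 ± 0.16 SE, adjusted p = 0.0677) and was called lower in 5 alternatives, among them DESeq2 (adjusted p = 0.0355), limma voom (adjusted p = 0.00999) and the 8 HuMgat2 libraries alone (adjusted p = 0.016). In WT 1 member was lower and 1 higher, and the diet effect differed between genotypes for 6, among them Cps1 (interaction log2 -1.24 ± 0.24 SE, adjusted p = 0.00657) and Agxt (interaction log2 -1.38 ± 0.31 SE, adjusted p = 0.0165). Pericentral genes had 5 of 18 lower and 2 higher (median log2 change -0.03), against 6.40% and 7.56% of all tested genes. Cyp1a2 and ornithine aminotransferase Oat (1.65-fold) were among the lower and the amino acid transporter Slc1a4 (2.14-fold) among the higher. The higher count was 1 without HFD library 12 or chow library 13 and 4 without WT HFD library 4, and with library totals 6 were higher and 3 lower. Glul, glutamine synthetase of the innermost cells, stood at 1386, 1395, 1352 and 1788 CPM on HFD, against 1349, 518, 1338 and 1267 CPM on chow and was not called, with chow library 14 the lowest, but was called higher with library totals.

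Among genes of sugar metabolism and insulin signalling some rose and others fell. Khk, which phosphorylates fructose, stood at 319.6, 395, 418 and 465 CPM on HFD, against 216, 145, 185 and 155 CPM on chow (log2 change 1.19 ± 0.17 SE, adjusted p = 0.000193), and pyruvate carboxylase Pcx rose 2.22-fold. Neither overlapped. Ppp1r3c, which directs glycogen synthesis, fell 3.04-fold, the gluconeogenic enzyme Pck1 2.37-fold and the first insulin receptor substrate Irs1 1.34-fold (adjusted p = 0.0411, a call lost in 11 of 24 alternatives). In all 5 of 23 were called higher and 4 lower, against 7.56% and 6.40% of all tested genes. Without WT HFD library 4, 8 were higher.

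Secreted regulators moved both ways, with Fgf21 among the higher. Of 20 tested 6 fell and 3 rose, against 6.40% and 7.56% of all tested genes. Hamp, the iron hormone hepcidin, stood at 198, 97.4, 105 and 264 CPM on HFD, against 597, 779, 518 and 304 CPM on chow (log2 change -1.73 ± 0.56 SE, adjusted p = 0.048). Angptl8, which restrains lipoprotein lipase, and the stress hormone Gdf15 fell 2.55-fold and 2.23-fold, whereas Inhbe, a subunit of activin E, rose 2.24-fold. Calls for the lower genes were less stable, and Hamp was lost in 11, Gdf15 in 12 and Angptl8 in 6 of 24 alternatives. The count of 6 was 3 without HFD library 9 or 12 and 2 without HFD library 10 or chow library 13. With library totals the balance turned, with 1 lower and 5 higher. Among nuclear receptors Pparg, which drives fat storage, stood at 18.4, 27.4, 21.9 and 23.4 CPM on HFD, against 8.59, 8.20, 6.93 and 8.01 CPM on chow (log2 change 1.52 ± 0.27 SE, adjusted p = 0.00116), without overlap, while Hnf4a, the hepatocyte master regulator, fell 1.40-fold (adjusted p = 0.0304, lost in 7 alternatives). The list had 3 of 21 higher and 2 lower, against 7.56% and 6.40% of all tested genes. Either count was 1 without HFD library 10, 11 or 12, the higher count also without chow library 13, WT HFD library 2 or WT chow library 5, 6 or 7, and the lower count also without chow library 14 or 16.

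Clock genes were mixed, with 3 of 20 higher and 4 lower, against 7.56% and 6.40% of all tested genes. The period genes Per2 and Per3 rose 1.77-fold and 1.70-fold. Bhlhe41, a repressor of the clock, stood at 1.18, 1.73, 0.978 and 1.43 CPM on HFD, against 5.23, 2.05, 5.05 and 6.60 CPM on chow (log2 change -1.82 ± 0.42 SE, adjusted p = 0.00807), without overlap. The repressors Nr1d1 and Nfil3 fell 2.09-fold and 2.03-fold and Clock itself 1.53-fold. The higher count was 1 without HFD library 10 or 12 and 5 without WT HFD library 2 or 4, and the lower count was 7 without WT HFD library 4. With library totals 6 were higher and 4 lower. In WT 8 were higher and 4 lower, and the diet effect on Bhlhe41 differed there (log2 change in WT 1.16, adjusted p = 0.0576; interaction log2 -2.98 ± 0.58 SE, adjusted p = 0.00656). Immediate early genes, which respond within minutes to stimulation or handling, had 8 of 18 lower and 2 higher (median log2 change -0.82). The shares of all tested genes were 6.40% and 7.56%. Egr1, a transcription factor of this kind, stood at 19.3, 7.08, 11.3 and 12.3 CPM on HFD, against 197, 208, 20.3 and 162 CPM on chow (log2 change -3.55 ± 0.71 SE, adjusted p = 0.00308). Fos stood at 1.59, 1.77, 1.66 and 2.06 CPM on HFD, against 11.0, 11.5, 0.698 and 35.2 CPM on chow (log2 change -3.05 ± 0.79 SE, adjusted p = 0.0156). Chow library 15 was low for both, below every HFD library for Fos, and Fos lost its call without chow library 16 (-2.13 on the log2 scale, adjusted p = 0.0753). The 2 that rose were the factors Klf4 (2.33-fold) and Klf6, 1 of them without HFD library 11 or 12 or chow library 15 or 16. Nr4a1, Junb and Ier2 fell 5.69-fold, 4.33-fold and 4.01-fold. The part of handling or collection time in these values was not tested. Of 20 genes of the unfolded protein response 3 fell and 1 rose, against 6.40% and 7.56% of all tested genes. Herpud1 (1.98-fold) was among the lower, and the higher one was Sesn2 (1.48-fold). The lower count was 0 without HFD library 10, 1 without HFD library 11 or 12 or chow library 13 or 16, and 6 without chow library 14. The higher count was 0 without HFD library 12 or chow library 13 and 2 without HFD library 9, WT HFD 2, WT HFD 3 or WT HFD 4. With library totals the balance turned, with 0 lower and 3 higher.

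Of 26 tested genes of the acute phase and complement list 4 were called lower, against 6.40% of all tested genes, and 0 higher. The 4 were C6, C8a, C8b and C9, components of the membrane attack complex. C8b, a subunit of that complex (ENSMUSG00000029656, GRCm39 chromosome 4, 104623514 to 104661745), stood at 55.5, 46.5, 40.1 and 23.9 CPM on HFD, against 270.3, 156, 239 and 245 CPM on chow (log2 change -2.45 ± 0.22 SE, adjusted p = 4.56e-06). C6 stood at 74.5, 81.8, 55.5 and 33.5 CPM on HFD, against 211, 199.9, 208 and 268 CPM on chow (log2 change -1.85 ± 0.22 SE, adjusted p = 5.15e-05), and C8a and C9 fell 3.43-fold and 2.59-fold. None of the 4 overlapped between the diets. C6 is also on the male-biased list. The diet effects of C6, C8a, C8b and C9 differed from WT (interaction log2 -2.46 ± 0.30 SE, adjusted p = 0.000195 for C8b). Saa1 and Saa2, acute phase apolipoproteins, stood at 30.9 ± 11.2 and 15.2 ± 3.57 CPM on HFD and 17.6 ± 5.61 and 3.92 ± 0.942 CPM on chow (SD, n = 4 each) and did not pass the test (adjusted p = 0.706 for Saa1 and 0.405 for Saa2). Saa2 was called higher without WT HFD library 4 (log2 change 1.97, adjusted p = 0.00124) and with the 8 HuMgat2 libraries alone (adjusted p = 0.000116). In WT liver Saa1 stood at 123, 28.0, 26.9 and 7574 CPM on HFD, against 5.67, 5.55, 7.93 and 7.32 CPM on chow, with WT HFD library 4 far above the rest. In WT the list had 12 members higher and 0 lower. Without that library, and with the 8 HuMgat2 libraries alone, 10 members were lower and 3 higher in HuMgat2.

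Interferon-stimulated genes were called in both directions. Of 24 interferon-stimulated genes 3 were higher and 2 lower, against 7.56% and 6.40% of all tested genes. Ifi27l2b, of the interferon-induced Ifi27 family, had the largest change of these, at 11.2, 21.1, 20.6 and 19.5 CPM on HFD, against 2.32, 2.28, 1.88 and 1.45 CPM on chow (log2 change 3.19 ± 0.29 SE, adjusted p = 4.83e-06). The antiviral genes Oasl1 and Usp18 rose 1.50-fold and 1.58-fold, and Mx2 and Bst2 fell 2.02-fold and 1.46-fold. The call for Usp18 was lost in 12 of 24 alternatives. The higher count was 1 without HFD library 10 or 11 or chow library 14 or 16, and the lower count was 1 without HFD library 10 or 12 or chow library 15 and 0 with library totals. Of 18 antigen presentation genes 0 were called by edgeR, DESeq2 or limma voom, 0 had an unadjusted p below 0.05, and 4 were higher in the fit on the 8 HuMgat2 libraries alone. Of 18 chemokines and cytokines 2 were called higher, against 7.56% of all tested genes: Ccl2, which attracts monocytes (4.67-fold), and osteopontin Spp1 (1.80-fold). That count was 0 or 1 without any 1 HuMgat2 library, 1 when any WT chow library was left out and 6 without WT HFD library 4. Without WT HFD library 2, 3 or 4, 1 member was lower. Outside these lists, the macrophage chemokine Ccl9 fell, at 9.32, 10.3, 7.31 and 9.68 CPM on HFD, against 41.5, 50.8, 29.6 and 32.7 CPM on chow (log2 change -2.08 ± 0.16 SE, adjusted p = 1.37e-06), without overlap.

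Markers of macrophages that gather around fat-laden cells rose while those of resident Kupffer cells did not pass the test. Of 15 lipid-associated macrophage markers 8 were called higher (median log2 change 0.97), 5 without HFD library 10 or chow library 15. In WT 9 of the 15 were called higher and 0 lower (median log2 change 1.55). Gpnmb, a lysosomal glycoprotein, stood at 3.17, 2.97, 1.96 and 5.69 CPM on HFD, against 0.0646, 0.190, 0.107 and 0.234 CPM on chow (log2 change 4.40 ± 1.01 SE, adjusted p = 0.00765). Mmp12, the macrophage elastase, stood at 4.48, 3.76, 3.32 and 4.88 CPM on HFD, against 0.452, 0.607, 0.430 and 0.140 CPM on chow (log2 change 3.30 ± 0.43 SE, adjusted p = 0.000101). Both were low throughout and did not overlap. Trem2, a lipid receptor, and the tetraspanin Cd63 rose 3.38-fold and 3.52-fold, and the call for Trem2 was lost without HFD library 10 or chow library 13 or 15. The list includes Plin2 and Lpl, which hepatocytes or other cells also express. Of 14 Kupffer cell markers 0 were called by edgeR, DESeq2 or limma voom and 0 had an unadjusted p below 0.05 (median log2 change 0.33), 2 without WT HFD library 4 and 4 with the 8 HuMgat2 libraries alone, with Clec4f at log2 change 0.33 ± 0.20 SE, adjusted p = 0.308. The summed level of the Kupffer list was 375 to 431 CPM on HFD and 294 to 373 CPM on chow. In WT 4 Kupffer cell markers were called higher and 1 lower (median log2 change 0.74). The interaction test called 0 members of either macrophage list. At an unadjusted interaction p below 0.05 were 5 lipid-associated markers and 1 Kupffer cell marker. In bulk tissue, fewer cells of a type and less RNA per cell cannot be told apart.

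Collagens and other matrix genes rose together. Of 21 collagen genes 14 were called higher and 0 lower (median log2 change 0.95). The fibrillar collagens led: Col1a1 (ENSMUSG00000001506, GRCm39 chromosome 11, 94827050 to 94843868) stood at 22.6, 34.4, 32.5 and 34.5 CPM on HFD, against 4.13, 9.95, 5.00 and 5.90 CPM on chow (log2 change 2.29 ± 0.35 SE, adjusted p = 0.000419) and Col3a1 at 68.3, 79.1, 79.5 and 89.0 CPM on HFD, against 17.6, 29.2, 18.4 and 20.1 CPM on chow (log2 change 1.88 ± 0.22 SE, adjusted p = 4.25e-05). Chow library 14 was the highest chow library for both and lay below every HFD library. Col1a2 rose 3.93-fold, and the beaded-filament collagens Col6a1 and Col6a2 rose 2.38-fold and 2.29-fold. In WT 13 collagens were higher, and the diet effect was called different between genotypes for 0 by edgeR, with 3 at an unadjusted p below 0.05. Of 27 other matrix genes 17 were higher and 0 lower, among them the cross-linkers Lox (3.66-fold, a call lost without chow library 13) and Loxl2 (2.70-fold), periostin Postn (2.81-fold) and tenascin Tnc (3.64-fold). Loxl2 stood at 7.98, 9.91, 9.78 and 11.1 CPM on HFD, against 4.33, 3.76, 3.60 and 2.71 CPM on chow (log2 change 1.43 ± 0.17 SE, adjusted p = 3.51e-05) without overlap, and its change was larger than in WT (0.38 on the log2 scale; interaction log2 1.05 ± 0.23 SE, adjusted p = 0.0144). Of 17 stellate cell and fibroblast markers 8 rose, Lrat, which stores retinol (2.20-fold), Colec11 (1.85-fold) and decorin Dcn (1.71-fold) among them. That count was 5 without chow library 15. The summed level of these markers was 541 to 634 CPM on HFD and 297 to 493 CPM on chow, and its part in the matrix values was not tested.

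Cell division genes, low on both diets, rose. Of 23 tested 11 were called higher and 0 lower (median log2 change 0.92). Ccnb1, the cyclin of mitotic entry, stood at 0.529, 1.68, 1.53 and 1.17 CPM on HFD, against 0.129, 0.266, 0.269 and 0.0468 CPM on chow (log2 change 2.71 ± 0.55 SE, adjusted p = 0.00349). Cdc20, which activates chromosome separation, stood at 1.02, 1.28, 1.40 and 1.34 CPM on HFD, against 0.194, 0.417, 0.376 and 0.281 CPM on chow (log2 change 1.94 ± 0.36 SE, adjusted p = 0.00167). Mki67, the proliferation marker, rose 3.34-fold and Top2a, which untangles replicated DNA, 3.00-fold. The call for Top2a was lost without any single HuMgat2 or WT chow library, and that for Mki67 without 5 of the HuMgat2 libraries. The count was 5 without HFD library 12 or chow library 16, 6 without HFD library 10 or chow library 13, and 7 without HFD library 11 or chow library 14.

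Markers of other cells give the setting of these values. Of 13 hepatocyte markers 6 fell, among them Cps1 and Ass1, which are also periportal genes, and 0 rose, with a summed level of 86060 to 102500 CPM on HFD and 104500 to 131700 CPM on chow. The alpha-1 antitrypsin genes Serpina1a and Serpina1c, close copies of each other, fell 2.12-fold and 2.22-fold. Of 14 endothelial markers 2 rose: Lyve1, a hyaluronan receptor of sinusoids, stood at 20.8, 23.1, 15.9 and 22.9 CPM on HFD, against 4.39, 10.1, 2.26 and 4.45 CPM on chow (log2 change 1.94 ± 0.35 SE, adjusted p = 0.00138), and von Willebrand factor Vwf rose 1.54-fold. These 2 of 14 stand against 7.56% of all tested genes called higher. The summed endothelial level was 489 to 495 CPM on HFD and 424 to 472 CPM on chow. Of 4 tested adipocyte markers 3 rose, while the defining markers Adipoq, Lep, Retn and Plin1 were too low to test, with at most 4 counts over a diet group. The summed adipocyte level was 37.5 to 50.9 CPM on HFD and 17.6 to 21.4 CPM on chow. Cfd, the adipose protease adipsin, stood at 3.01, 6.82, 6.97 and 4.08 CPM on HFD, against 0, 0.0759, 0.0537 and 0.234 CPM on chow (log2 change 5.66 ± 1.39 SE, adjusted p = 0.0116), and its log2 change was 6.56 without chow library 16 and was not called by limma voom (adjusted p = 0.328). The other 2, Fabp4 and Pparg, are made by other cells too. The part of adipose tissue in these values was not tested. Of 7 cholangiocyte markers 1 rose (Spp1) and 1 fell (Sox9, 1.66-fold), each call lost without most single HuMgat2 libraries. The shares of all tested genes were 7.56% and 6.40%. Of 8 tested lymphocyte and neutrophil markers 0 were called by edgeR, 2 by DESeq2 and 0 by limma voom, and 2 had an unadjusted p below 0.05. Of 6 erythroid, pancreas and muscle markers 1 was called, the protease Cela1, which fell 2.75-fold, and 2 were without WT HFD library 4. The share of all tested genes called lower was 6.40%.

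Several of the largest changes lay outside these lists. Sprr1a, a small proline-rich protein of stressed epithelia, had 240 counts over the HFD group and 0 over the chow group. By library totals it was at least 82.6-fold higher when the chow group is set to 3 counts in all, the limit that a count of 0 allows. A4gnt, a glycosyltransferase of gastric mucin, stood at 3.42, 22.3, 17.4 and 29.4 CPM on HFD, against 0.129, 0.0380, 0.161 and 0.0468 CPM on chow (log2 change 7.62 ± 0.83 SE, adjusted p = 1.95e-05). Themis, a T cell signalling gene, stood at 6.76, 20.1, 23.1 and 46.2 CPM on HFD, against 1.03, 0.417, 1.13 and 1.22 CPM on chow (log2 change 4.69 ± 0.49 SE, adjusted p = 1.4e-05). In all 3 genes library 9 was the lowest of the HFD group and library 12 the highest. The groups did not overlap, which was a condition for naming a gene among the largest changes. Ly6d, a surface protein of lymphoid and epithelial cells, rose 36.2-fold, a log2 change of 5.18 that was 5.85 without chow library 16. Anxa2, a calcium-dependent membrane protein, stood at 27.6, 38.0, 38.9 and 52.7 CPM on HFD, against 4.65, 7.74, 4.73 and 6.83 CPM on chow (log2 change 2.70 ± 0.21 SE, adjusted p = 1.37e-06). Among decreases, Adgrf1, an adhesion receptor (ENSMUSG00000041293, GRCm39 chromosome 17, 43581220 to 43635628), stood at 0.122, 0.0885, 0 and 0.0896 CPM on HFD, against 6.20, 19.9, 9.56 and 13.7 CPM on chow (log2 change -7.26 ± 0.58 SE, adjusted p = 1.37e-06). Cdh1, E-cadherin, which joins epithelial cells and is a periportal gene in liver, stood at 3.66, 3.72, 3.36 and 4.66 CPM on HFD, against 48.8, 52.8, 37.0 and 52.6 CPM on chow (log2 change -3.63 ± 0.24 SE, adjusted p = 2.05e-07). Slco2a1, a prostaglandin transporter, stood at 38.0, 22.5, 24.5 and 20.4 CPM on HFD, against 126, 150.5, 137 and 165 CPM on chow (log2 change -2.46 ± 0.16 SE, adjusted p = 2.05e-07). None of these 3 overlapped, which the rule for the largest decreases required of Adgrf1. Hsd3b4, a copy of Hsd3b5, had 2 counts over the HFD group, both in library 9, and 335 over the chow group. By library totals that was 162-fold fewer on HFD (95% counting interval 44.5 to 1340). Gm10681 had nearly the same counts in every library, so the 2 are not independent. Dmbt1 and Moxd1 had 1 count each over the HFD group, and 1 chow library, 16, held most of their chow counts, at 132 and 29.2 CPM. Both lost their call without it.

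Set against WT, 844 genes had a diet effect that differed between genotypes (4.87%), 452 with a more positive and 392 with a more negative change in HuMgat2, and 487 of them were among the 2418 genes called in HuMgat2. Of the 2418, 747 were also called in WT (30.9% of the HuMgat2 calls and 28.5% of the 2617 WT calls), 654 in the same direction and 93 in the opposite one. Over all 17318 tested genes, 14.0% were called in HuMgat2 and 2617 genes in WT. The 2 comparisons share no library, but 1 fit with a shared scaling and estimate of spread gave both. Their calls are therefore not independent. Pim1, a kinase induced by cytokines, stood at 19.6, 17.1, 22.1 and 13.9 CPM on HFD, against 37.9, 36.1, 48.3 and 35.4 CPM on chow in HuMgat2 (log2 change -1.11 ± 0.14 SE, adjusted p = 5.67e-05) and at 33.3, 32.5, 33.3 and 37.4 CPM on HFD and 15.7, 21.0, 18.2 and 17.0 CPM on chow in WT (interaction log2 -2.04 ± 0.19 SE, adjusted p = 5.7e-05). Its diet changes ran in opposite directions. Adam11, a relative of metalloproteases, did likewise, 3.03-fold lower in HuMgat2 and changed by 1.64 on the log2 scale in WT (interaction log2 -3.24 ± 0.31 SE, adjusted p = 5.7e-05). Fam126a, which takes part in making phosphoinositide, stood at 26.7, 39.4, 36.1 and 31.7 CPM on HFD, against 9.04, 9.83, 10.0 and 9.88 CPM on chow (log2 change 1.79 ± 0.13 SE, adjusted p = 5.62e-07), against a log2 change of 0.15 in WT (interaction log2 1.64 ± 0.18 SE, adjusted p = 8.4e-05). Spon2, a secreted matrix protein, rose 3.35-fold in HuMgat2, against -1.07 on the log2 scale in WT (interaction log2 2.82 ± 0.31 SE, adjusted p = 8.35e-05). The interaction count was 1129 without WT HFD library 4, 529 without WT chow library 5, 550 without HuMgat2 chow library 15 and 551 without HuMgat2 HFD library 10.

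**Figure D5:**
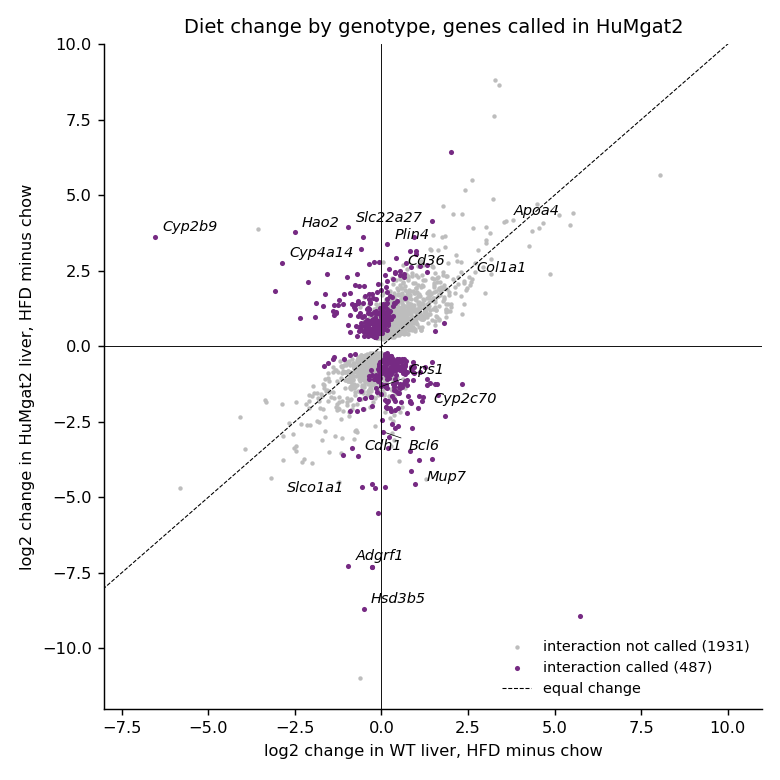
Log2 change on HFD relative to chow in HuMgat2 liver (vertical) and in WT liver (horizontal) for the 2418 genes called in HuMgat2; purple points were called by the interaction test, grey points were not, and the dashed line marks equal change. Slc22a27, Cyp2b9, Hao2 and Cyp4a14 lie above 0 in HuMgat2 and below 0 in WT, and Hsd3b5 and Adgrf1 lie far below the line, whereas Apoa4 and Col1a1 lie near it.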

How the data were processed

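RNA from 15 mg of liver with a RIN above 7 was depleted of ribosomal RNA and made into stranded total RNA libraries, per the labels' protocols. The 64 records hold 16 libraries, 4 records each. The deposited values are raw counts per gene name, made by the authors with featureCounts 2.0.1 on GRCm39 with Ensembl annotation 103, per the file headers. The header sets no strand option, so a gene and an overlapping antisense gene cannot be told apart. It also sets no option to count reads that match several places or genes. Whether such reads were left out is uncertain, since Hsd3b4 and Gm10681, at separate positions, had nearly the same counts. STAR 2.7, DESeq2 1.26.0 and mm39 are named in the submitters' processing notes. Of 53008 gene names, 78 join several gene identifiers. No row without a gene name was present.

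From the counts as deposited, genes were filtered with filterByExpr and scaled by TMM, and 17318 were tested with the quasi-likelihood test of edgeR 4.0.16 (R 4.3.3) over all 16 libraries with group as the only term, for HFD minus chow in HuMgat2, in WT and for the difference of both. Benjamini-Hochberg adjustment ran over all tested genes, and genes below 0.05 were called. Fitted log2 changes use the default prior count of edgeR, so changes of genes near 0 on 1 diet depend on it. The SE of a log2 change was taken as its absolute value divided by the square root of the quasi-likelihood F statistic. It is approximate, and least reliable for genes near 0 counts. Coordinates are those of the deposited annotation (GRCm39). Alternatives were DESeq2 1.42.0, limma 3.58.1 voom with quality weights, DESeq2 size factors, other filters, the 8 HuMgat2 libraries alone, each library left out, and library totals, the last added after the data were seen. Ratios of counts summed over a group, and the bound for a group with 0 counts, use library totals without TMM. Intervals of count ratios are 95% exact binomial intervals and cover counting error only, as does the floor of 3 counts. The scripts were tested on simulated data. The comparison and the 41 gene lists were chosen with earlier results of these data known, and the lists were described without a set test. Genes named were the Mogat and Dgat genes, the largest changes without overlap, the smallest p-values of the diet effect and of the interaction, the most abundant genes, genes near 0 counts on 1 diet, and of each list the first 2 tested and up to 5 called with the largest change. Any other gene named was chosen after its values were seen. Results for some genes are not reported here.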

Additional observations from a re-analysis of the deposited data

Results flagged for a closer look

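In 8 of 136 groups of 4 libraries, 1 library lay far from the other 3, with a gap to its nearest neighbour that took more of the group's range than Dixon's 95% critical value. Chance gives about 1 in 20 such groups, or 6.8 here. On HFD, library 12 was the highest for Scd1 (share of the range 0.964) and Glul (0.901), and library 9 the lowest for Ifi27l2b (0.842). On chow, library 14 was the highest for Agxt (0.893) and the lowest for Glul (0.901) and Slco1a1 (0.855), library 13 the highest for Cd36 (0.916) and library 16 the highest for C6 (0.839).

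For 64 genes named the diet effect in HuMgat2 differed from that in WT by the edgeR interaction test, 29 upwards and 35 downwards. The values below are log2 changes in HuMgat2 minus those in WT. Among lipid genes with a positive difference, it was 0.69 for Plin3, 3.21 for Plin4, 1.95 for Cd36, 2.61 for Vldlr, 1.26 for Gpam, 0.74 for Hadh, 0.83 for Eci1, 2.85 for Acot3, 5.63 for Cyp4a14, 3.10 for Fgf21 and 1.59 for Pltp. Cholesterol genes gave 2.87 for Hmgcs1 and 2.40 for Fdps. Female-biased, P450 and transporter genes gave 10.16 for Cyp2b9, 6.29 for Hao2, 4.90 for Slc22a27, 3.29 for Slc22a29, 2.63 for Cyp2c38 and 1.76 for Ugdh. The other positive differences were 0.61 for Nfe2l2, 1.19 for Srxn1, 0.58 for Stat5a, 0.97 for Irs1, 0.97 for Sesn2, 1.05 for Loxl2, 1.13 for Lrat, 2.82 for Spon2, 1.38 for Anxa2 and 1.64 for Fam126a.

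Negative differences in sex-biased and growth hormone genes were -8.18 for Hsd3b5, -7.05 for Hsd3b4, -7.05 for its near copy Gm10681, -4.09 for Slco1a1, -5.55 for Mup7, -3.14 for Cyp4a12b, -2.87 for Bcl6, -1.72 for Igfbp2 and -0.89 for Igf1. P450 and bile acid genes gave -2.54 for Cyp1a2, -2.50 for Cyp2c54, -2.88 for Cyp2c70 and -0.79 for Cyp27a1. Periportal and amino acid genes gave -1.24 for Cps1, -1.38 for Agxt, -1.24 for Pck1, -1.35 for Oat, -3.58 for Slc43a1 and -2.95 for Cdh1. Complement and immune genes gave -2.42 for C6, -1.88 for C8a, -2.46 for C8b, -1.91 for C9, -0.88 for Bst2 and -1.55 for Ccl9. Saa1 gave -7.38, and -2.35 without WT HFD library 4. Clock and immediate early genes gave -2.98 for Bhlhe41, -1.06 for Per3, -2.52 for Junb and -2.12 for Ier2. The remaining ones were -2.04 for Pim1, -3.24 for Adam11, -6.29 for Adgrf1, -2.97 for Gpcpd1 and -14.67 for Moxd1, whose HuMgat2 chow level rests on library 16 (-11.53 without it). Of the 64, 49 were called in all alternatives that gave the test, at most 23. The calls lost in some were those for Stat5a (15 alternatives), Cyp4a12b, Eci1 and Pck1 (12 each), Gpam (11), Nfe2l2 (10), Junb, Per3, Pltp and Saa1 (9 each), Cyp27a1 and Lrat (6 each), Mup7 (4), Igf1 (3) and Cyp2b9 (1). Leaving out 1 library moved these differences by more than 1.5-fold for Junb (-1.60 without WT HFD 4), Bcl6 (-3.58 without WT chow 5), Cyp2b9 (11.49 without WT HFD 3 and 9.31 without WT chow 7), Cyp4a14 (6.77 without HuMgat2 chow 14), Hsd3b4 and Gm10681 (-9.26 each without HuMgat2 HFD 9), Slco1a1 (-4.85 without HuMgat2 HFD 9), Mup7 (-6.48 without WT chow 6), Moxd1 (-19.69 without WT chow 6) and Saa1.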

How the results depend on the processing

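Of 165 called genes named, 124 were called under all 24 alternatives, and 8 of the 12 genes named that were not called were called in some alternative (Cyp7a1, Glul, Gpcpd1, Otc, Ppara, Saa2, Scd1 and Ugdh). Of values, 5 reversed, all of genes not called: Dgat1 at -0.02, -0.04, -0.04 and -0.04 (log2) without HFD library 11, HFD library 12, chow library 13 and chow library 15 (-0.04 to 0.13 over all libraries left out), and Dgat2 at 0.08 with library totals. Library totals, chosen after seeing the data, gave 3733 called genes, 3326 higher and 407 lower, 3252 without overlap and 2303 interaction calls; 8 of the 2418 called genes had the opposite sign. limma voom gave 1391 interaction calls, against 844. Leaving out 1 library gave 1627 (without HFD library 10) to 3394 (without WT HFD library 4) called genes, 679 to 1513 lower and 529 to 1129 interaction calls, with the same libraries at the ends of the lower calls. DESeq2 called 2803 genes (2383 shared), the 8 HuMgat2 libraries alone 2874 (2219 shared) and no filter 2112 (1922 shared). No shared call changed sign in any alternative. Of 82 list counts, 32 stayed within 1.5-fold in every alternative, and these include counts of 0 that stayed 0. With library totals the medians of the bile acid, glutathione, growth hormone, clock, nuclear receptor, pericentral, acute phase and ribosomal lists were above 0, and 8 lists with more members lower than higher had more higher. No paired analysis was possible because the diet groups share no replicate number. Below 1 CPM 6.92% of genes were called, and the part of depth was not tested.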

Other observations

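Genes that belong to none of the lists were also among those with the smallest interaction p. Slc22a29, of the organic anion transporter family, stood at 11.3, 8.98, 10.5 and 8.78 CPM on HFD, against 1.55, 2.39, 1.93 and 2.11 CPM on chow in HuMgat2 liver (log2 change 2.30 ± 0.25 SE, adjusted p = 1.85e-05), and its log2 change in WT was below 0 (interaction log2 3.29 ± 0.35 SE, adjusted p = 8.35e-05). Slc43a1, a transporter of large neutral amino acids, stood at 1.30, 1.77, 2.08 and 2.11 CPM on HFD, against 5.42, 3.83, 5.26 and 2.86 CPM on chow in HuMgat2 liver (log2 change -1.25 ± 0.28 SE, adjusted p = 0.00644), and its log2 change in WT was 2.33 (interaction log2 -3.58 ± 0.39 SE, adjusted p = 8.35e-05). Both were without overlap between the HuMgat2 diets. Gpcpd1, which splits glycerophosphocholine, and Ugdh, which makes the glucuronic acid donor, did not pass the test in HuMgat2 (log2 changes -0.41 and 0.25, adjusted p = 0.211 for Gpcpd1 and 0.219 for Ugdh; each was called in 1 alternative), and changed by 2.56 and -1.51 on the log2 scale in WT. Among diet effects in HuMgat2, Acsm2, a medium-chain acyl-CoA synthetase, stood at 0.122, 0.133, 0.0850 and 0 CPM on HFD, against 2.45, 0.304, 1.93 and 3.70 CPM on chow (log2 change -4.50 ± 0.70 SE, adjusted p = 0.000422), and its interaction did not pass the test (adjusted p = 0.0578). Ahsg, the abundant plasma protein fetuin A, fell 1.52-fold.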
